A study of Saccharomyces cerevisiae with 8 samples.

Results

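The first hour of *S. cerevisiae* CECT10094 in medium with ethanol is described here, gene by gene. It rests on 2 of the 8 columns of a value table, the cells kept for 1 h with 10% (v/v) ethanol and the cells kept for 1 h without it. For each open reading frame (ORF) the log2 ratio without ethanol was subtracted from the log2 ratio with ethanol. Of 6152 ORFs in the table, 6014 had a value in both columns and were the members. A further 80 had a value only with ethanol and 41 only without it.

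CECT10094 is a wine isolate from a biofilm (flor) wine and was the ethanol-tolerant strain of the study. The labels call it PE35M, a name that the study's methods ascribe to an earlier misidentification. The other strain, Temohaya-MI26, which the labels write TEMOHAYA-26, came from an agave fermentation and was the ethanol-sensitive one. Each strain was sampled at an early stage of 1 h and at a late stage, with 0 and 10% ethanol at each. Cells of all early groups had been moved from an overnight culture into fresh GPY, a rich glucose medium, at the start of the hour. Both columns of the comparison thus carry that transfer, and the added ethanol is the only difference in treatment. The study reports a longer lag phase in ethanol, so growth state can differ too and cannot be told apart from the ethanol here.

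RNA of a sample, labelled with Cy5, was hybridized on spotted cDNA arrays against a Cy3-labelled pool made from the RNA of all samples, and dyes were not swapped. A value of 0 therefore means as much signal as in the pool, and the pool cancels in a difference between columns. It is a ratio and not an amount, so values of different genes do not rank their abundance. The authors had combined 3 slides of a condition into 1 column by their median. No replicate error and no test can be had from 1 column per condition, and precision is limited by how few arrays there were. The labels speak of biological replicates, which are not separate in the values. Over all ORFs the median difference was 0.42, and a difference minus this median is called relative difference below. An ORF was called raised or lowered when its difference fell in a tail of the distribution over ORFs, set by a multiple of the SD around their mean. The limits were relative differences of 1.87 and -1.95, that is 3.65-fold above and 3.87-fold below the median ORF. Such a call ranks genes within the comparison and carries no p-value.

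The 8 columns held 5612 to 6115 ORFs each, and their medians lay between -0.22 and 0.32. The column with ethanol had a standard deviation of 0.595 over ORFs and the column without ethanol one of 0.730. Across 6014 ORFs both columns had a Pearson correlation of -0.11, given as a description because they share the pool and the array design. The lowest correlation among the columns was -0.36, between Temohaya-MI26 with ethanol and CECT10094 without it, both early, and the direction of the ratios follows the dyes that the methods state. On the 2 control entries of the table, buffer and *Arabidopsis* spots, the relative difference was 0.32 and 0.77. What part the spread of a column or the background of a spot has in a difference was not tested.

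As background, ethanol disturbs membranes and protein folding in yeast and lets protons leak into the cell. Yeast answers such a shock with a common stress programme under the regulators Msn2, Msn4 and Hsf1, in which chaperones, storage carbohydrates and redox enzymes rise while ribosomal protein and ribosome assembly genes fall. The endoplasmic reticulum (ER) has a folding response of its own, the unfolded protein response (UPR), under Hac1.

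Of the 6014 ORFs, 131 were raised (2.18%) and 212 were lowered (3.53%). A relative difference above 1, which is more than 2-fold over the median ORF, was reached by 629 ORFs (10.5%) and one below -1 by 775 ORFs (12.9%). The bulk of the ORFs moved much less, with the quartiles of the relative difference at -0.53 and 0.49. The extremes were *HSP26* at 5.00 and *RPS7A* at -4.94. Other scalings tried were quantile normalization of the 8 columns and scaling of the columns to a common spread. Under at least 1 of them, 36 of the raised and 9 of the lowered ORFs lost their call. Such genes are described below as called on the deposited scale only. This short form means that the call was lost under 1 or both of these scalings. Many of these raised ORFs, and all 9 lowered ones, kept it under the other scaling.

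As ratios to the pool, the raised ORFs were low without ethanol rather than very high with it. The pool holds RNA of all samples, those with ethanol included, so these ratios do not tell which column is the unusual one. After subtracting the median of each column, their median was -2.08 without ethanol and 0.54 with it. All 131 lay below the pool without ethanol, and 106 of them lay above it with ethanol. For 110 of the 131 the column without ethanol was the farther from its median. The lowered ORFs had medians of 1.17 without ethanol and -1.43 with it, and for 140 of the 212 the column with ethanol was the farther from its median. All 212 lay below the pool with ethanol.

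**Figure D1:**
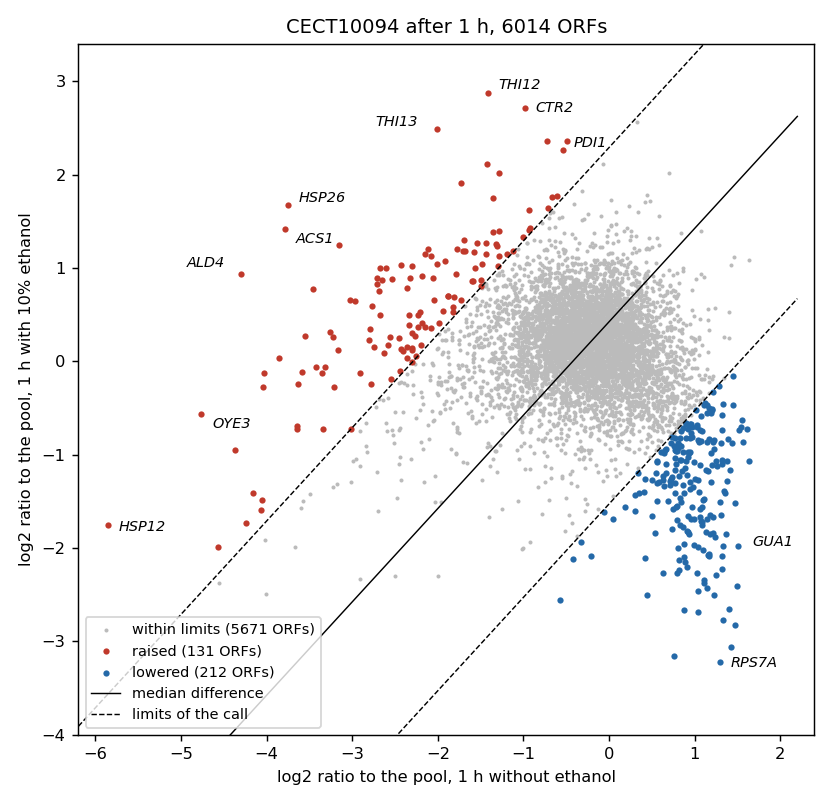
Each point is 1 of 6014 ORFs, with its log2 ratio to the pool without ethanol on the x axis and with 10% ethanol on the y axis, both at 1 h in CECT10094. The solid line is the median difference of 0.42 and the dashed lines are the limits of the call. The 131 raised ORFs spread far to the left, down to -5.85 for *HSP12*, and the 212 lowered ORFs lie at the lower right.

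Chaperones that hold or dissolve protein aggregates had the largest shift of any list. All 4 measured genes of the small heat shock proteins and disaggregase were raised, with a median relative difference of 3.74. *HSP26*, a small heat shock protein that binds unfolding proteins, had a log2 ratio of -3.75 without ethanol and 1.67 with it. Its relative difference of 5.00, or 32.0-fold, was the largest of all ORFs. *HSP42*, the other small heat shock protein of the cytosol, went from -3.46 to 0.78. *HSP104*, the disaggregase, went from -2.67 to 0.50. Both genes thus crossed from well under the pool to above it. *HSP12*, a membrane-binding hydrophilic protein, went from -5.85, the lowest value of the column, to -1.76, so it was raised by 3.67 and still lay under the pool. Its late columns in this strain were as low, at -5.14 without and -5.55 with ethanol.

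The *HSP31* family, methylglyoxal-detoxifying chaperone-like proteins, was raised in all 4 members, with *HSP33* at 3.98, *SNO4* at 3.25, *HSP32* at 3.12 and *HSP31* at 2.96. *HSP32*, *HSP33* and *SNO4* are near-identical genes that a spotted product may not tell apart. The families of folding chaperones did not move as a block. Of 14 genes of Hsp90 and its co-chaperones none was raised, the median was 0.64, and *HSC82* had the highest value at 1.10. *PPT1*, a phosphatase bound to Hsp90, was lowered on the deposited scale only, at -2.0.

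Of 17 genes of cytosolic Hsp70, Hsp110 and Hsp40, 3 were lowered and none was raised, with a median of -0.06. Those 3 were the Hsp70 *SSB2* at -2.47, *SSZ1* at -2.21 and its partner *ZUO1* at -2.16, which sit on the ribosome and fold nascent chains. *SSB1*, the near-identical copy of *SSB2*, had 0.37. The stress forms *SSE2* and *SSA3* had 1.55 and 0.69. Mitochondrial chaperones stayed between -1.43 for *MGE1* and 0.71 for *MDJ1*, with no call among 11.

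**Figure D2:**
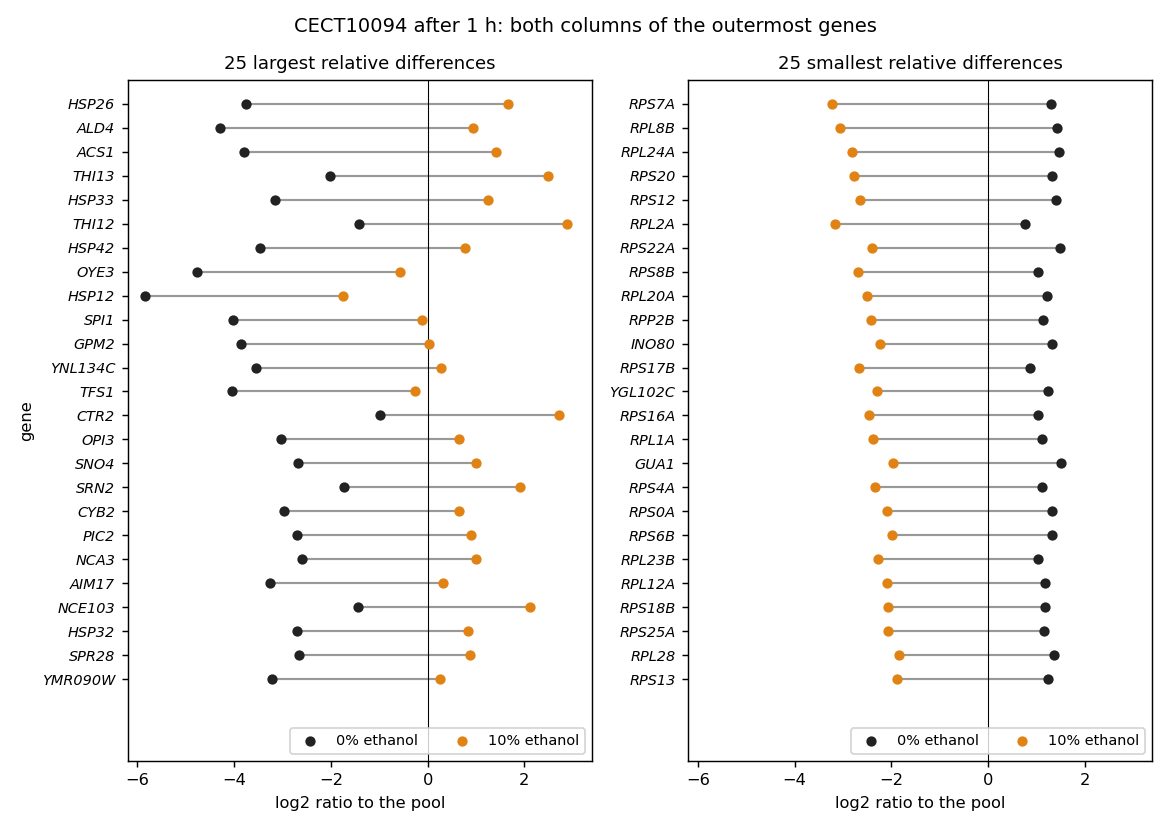
Log2 ratio to the pool without ethanol (black) and with 10% ethanol (orange) for the 25 ORFs with the largest and the 25 with the smallest relative difference, at 1 h in CECT10094. In the left panel the black points reach -5.85 for *HSP12*, and in the right panel every black point lies above 0 and every orange point below it.

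Genes of the general stress programme under Msn2 and Msn4 were raised in 12 of 28 cases, 4 of them on the deposited scale only, and none was lowered. Their median relative difference was 1.67, with 20 of 28 above 1. *SPI1*, a wall protein that rises in stationary phase, went from -4.03 without ethanol to -0.12 with it. *TFS1*, an inhibitor of carboxypeptidase Y, went from -4.04 to -0.27. *DCS2*, a regulator of the decapping enzyme, went from -3.59 to -0.11. These genes came up to about the level of the pool. *MSC1*, *YGP1*, *SDP1*, a phosphatase of the cell wall kinase, and *PNC1*, the nicotinamidase, were raised by 3.0, 2.80, 2.42 and 2.29. *DDR2*, *GRE2*, *OM45* and *RTC3* were the 4 raised on the deposited scale only, at 2.37, 2.09, 2.14 and 2.05.

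Stationary-phase genes and hydrophilins, small proteins that protect against drying, gave 6 raised of 19, with a median of 1.45. *NCE103*, the carbonic anhydrase, went from -1.43 to 2.11 and so was among the few that lay well above the pool. *RGI1*, a gene of energy metabolism, went from -2.33 to 0.89. *NCA3* was raised by 3.17, *AIM17* by 3.15, *SPG5* by 2.16 and, on the deposited scale only, *STF2* by 1.87. The desiccation genes *GRE1* and *SIP18* had 1.09 and 1.31, below the limit, and both stayed far under the pool with ethanol, at -2.49 and -3.10.

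On the list of aldo-keto reductases and related genes 7 of 17 were raised, with a median of 1.25 and none lowered. Not every gene on it is known to reduce aldehydes or ketones. *OYE3*, a homolog of old yellow enzyme, went from -4.76 without ethanol to -0.56 with it. *GRE3*, the aldose reductase, went from -2.69 to 0.75, and *YDL124W*, an alpha-keto amide reductase, from -2.30 to 1.02. *YNL134C*, *YMR090W* and *YML131W* were raised by 3.4, 3.06 and 2.87, and *GRE2*, a methylglyoxal reductase, on the deposited scale only. *OYE2*, the copy of *OYE3*, had -0.23. Of 22 genes of thioredoxin, glutaredoxin and peroxiredoxin and of 7 genes of catalase, superoxide dismutase and flavohemoglobin none was called, and the medians were 0.35 and -0.46. The highest of them was *TSA2*, a peroxiredoxin, at 1.25, and the lowest *YHB1*, the flavohemoglobin, at -1.27.

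Genes that turn acetaldehyde into acetate and acetyl-CoA held the next largest differences. *ALD4*, the mitochondrial aldehyde dehydrogenase, went from -4.30 without ethanol to 0.93 with it, a relative difference of 4.80 or 28.0-fold. *ACS1*, the acetyl-CoA synthetase that is shut off by glucose, went from -3.79 to 1.42, a relative difference of 4.78. *ALD6*, the cytosolic aldehyde dehydrogenase, was raised by 2.14 and the ammonium exporter *ATO2*, on the deposited scale only, by 2.09. These were the 4 raised genes of 13 on this list, whose median was 1.02. *ACS2*, the synthetase that works on glucose, had 0.84. Among 9 measured alcohol dehydrogenases none was called. The highest values were those of the butanediol dehydrogenase *BDH2* at 1.80 and the formaldehyde dehydrogenase *SFA1* at 1.43, and the lowest that of *ADH6* at -1.24.

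All 7 trehalose genes had relative differences above 0, 4 of them above 1, and none was called, with a median of 1.04. The synthase *TPS1* had 1.71, the regulatory subunit *TSL1* 1.67, and the phosphatase *TPS2* 1.43, while *TPS3* had 0.14. Of 17 glycogen genes 1 was raised, the glucoamylase *SGA1* at 1.87 on the deposited scale only, and the median was 0.74. The synthases *GSY2* and *GSY1* had 1.31 and 1.21. *PCL8* and *PCL10*, cyclins that restrain glycogen synthase, had the lowest values of the list, both at -1.70.

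In glycerol metabolism *GPD1*, the dehydrogenase that commits carbon to glycerol, and *GUT2*, which takes glycerol back, were raised by 2.14 and 2.18, both on the deposited scale only. *GUP1*, a membrane protein linked to glycerol uptake, was lowered by 2.44 on the log2 scale, from 1.15 without ethanol to -0.87 with it. *GPD2* stood at 0.00. The other 9 genes of the list were not called.

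In the pentose phosphate pathway 4 of 15 genes were raised and 2 lowered, with a median of 0.59. In the oxidative branch, which makes NADPH, *ZWF1* went from -2.79 to 0.35 and *SOL4* from -3.42 to -0.07, and *GND2* was raised by 1.93 on the deposited scale only. In the non-oxidative branch the isomerase *RKI1* and the epimerase *RPE1* were lowered, at -2.05 and -2.03, and the transketolase *TKL1* had -1.62. *NQM1*, a transaldolase copy of stationary phase, was raised by 2.15 on the deposited scale only. The main isozymes *GND1* and *SOL3* had -0.35 and -0.32, so within the oxidative branch the raised genes were not the whole set.

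Only 12 of 23 glycolytic genes had both values. The minor isozymes were the ones raised, *GPM2* at 3.46, *EMI2* at 2.30 and *PYK2* at 2.01, the last pair on the deposited scale only. *TPI1* had 1.78 and *PFK1* 0.83, and *HXK2*, the main hexokinase, had -0.78. Among 25 hexose transporters and sensors 1 was called. *HXT3*, a low-affinity transporter used at high glucose, was lowered at -2.12, and *HXT1* and *HXT4* had -1.61 and -1.43. *HXT11*, *HXT12*, *HXT16* and *HXT13*, minor members of near-identical sequence, had 1.79 to 1.30. *SUC2*, the invertase, was raised by 2.09 on the deposited scale only, from -4.25 to -1.73.

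In the ER, 3 of 17 measured folding genes were raised and none was lowered, with a median of 0.27. *PDI1*, the disulfide isomerase, went from -0.54 without ethanol to 2.26 with it. *MPD1*, a member of the same family, went from -1.29 to 2.02. *ERO1*, which reoxidizes the isomerase, went from -1.77 to 1.21. All 3 raised genes act on disulfide bonds. *EUG1*, another isomerase, had 1.16, the nucleotide exchange factors *SIL1* and *LHS1* had 1.31 and 0.76, and *HAC1* had 0.58, none of them called. *MPD2* had -0.60. *KAR2*, the main chaperone of the ER, had no pair of values and is not analysed here.

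Of 18 genes of ER-associated degradation none was called and 6 had relative differences above 1, with *DFM1* at 1.81 and *USA1* at 1.40 the highest. Of 19 N-glycosylation genes 14 were below 0 and 5 above it, with a median of -0.205, and none was raised. The oligosaccharyltransferase subunits *STT3* and *OST6* were lowered, at -2.23 and -2.32, and *ALG12* was the highest at 1.01. *YPS1*, a protease at the cell surface, was raised by 2.33.

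The proteasome shifted little in this strain, with a median of 0.49 over 36 genes, 31 of them above 0 and none called. *RPN4*, the regulator of proteasome genes, had 1.71 and the lid subunit *RPN11* 1.5. On the list of vacuolar proteases and inhibitors 3 of 11 measured genes were raised. They were *TFS1* and *YPS1* as given above and the protease *PEP4* at 1.95 on the deposited scale only. Of these, *YPS1* is a protease of the cell surface and not of the vacuole. The vacuolar aminopeptidase *APE1* is outside the count because its older name on the list was not matched. It was raised by 1.97 on the deposited scale only. The autophagy list had a median of 0.24 over 27 genes and no call.

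Thiamine genes stood out for how high they rose above the pool. *THI12* went from -1.42 without ethanol to 2.88 with it, the highest value of that column, *THI13* from -2.01 to 2.48 and *THI11* from -0.72 to 2.36. They belong to 1 family of near-identical genes that make the pyrimidine part of thiamine, so their values are not independent of each other. The remaining member, *THI5*, went from -0.87 to -0.06, a relative difference of 0.39. *THI74*, a membrane transporter gene, was raised by 2.47 and *THI4*, which makes the thiazole part, had 1.26. The list as a whole had a median of 0.25 over 19 genes, with 4 raised and 3 below -1. *PHO3*, an acid phosphatase that frees thiamine, and *THI7*, the thiamine importer, had -1.92 and -1.37.

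Of 11 copper genes 2 were raised and 1 was lowered. *CTR2*, which moves copper out of the vacuole, went from -0.98 to 2.71, a value with ethanol below that of *THI12* alone. *PIC2*, a mitochondrial carrier of copper and phosphate, went from -2.71 to 0.89. *CTR1*, the importer of the plasma membrane, was lowered on the deposited scale only, at -2.03, and *CTR3* had -1.72. For zinc, *ZAP1*, the activator of zinc uptake genes, was raised by 2.08 and *VEL1* by 2.64, whereas the importers *ZRT1* and *ZRT2* had -0.30 and -1.0. In iron metabolism *TIS11*, which destabilizes messages of iron-using proteins, and the heme oxygenase *HMX1* were raised by 1.92 and 1.89. The iron oxidase *FET3* and permease *FTR1* had 0.39 and 0.21.

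In lipid metabolism single steps were called rather than whole routes. *OPI3*, the last methyltransferase of phosphatidylcholine synthesis, went from -3.02 without ethanol to 0.66 with it. *OLE1*, the only fatty acid desaturase of yeast, went from -2.19 to 0.92. The sterol acyltransferase *ARE2* was raised by 1.92. Against these, the elongase *ELO3* went from 0.83 to -1.75, the synthase subunit *FAS2* was lowered at -2.0, the ceramide synthase subunit *LAC1* at -2.46 and the choline transporter *HNM1* at -2.14. Ergosterol genes had a median of -0.33 over 31 and no member below the limit, with *ERG3* the lowest at -1.89.

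Of 9 proline genes 2 were raised and none was lowered. *PUT4*, the proline permease, went from -2.15 to 1.15 and *PUT1*, the proline oxidase, from -2.11 to 1.21, and *PUT2*, the next enzyme of breakdown, had 1.68. The genes of proline synthesis had relative differences under 0, with *PRO1* at -0.69, *PRO2* at -1.01 and *PRO3* at -0.53. *UGA1*, the transaminase of gamma-aminobutyrate, was raised by 2.99 and was the 1 called gene among 27 under nitrogen catabolite repression. *ARG4*, the last enzyme of arginine synthesis, was raised by 2.44, and none of the other 12 arginine genes was called, with *ARG8* the lowest at -0.70.

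**Figure D3:**
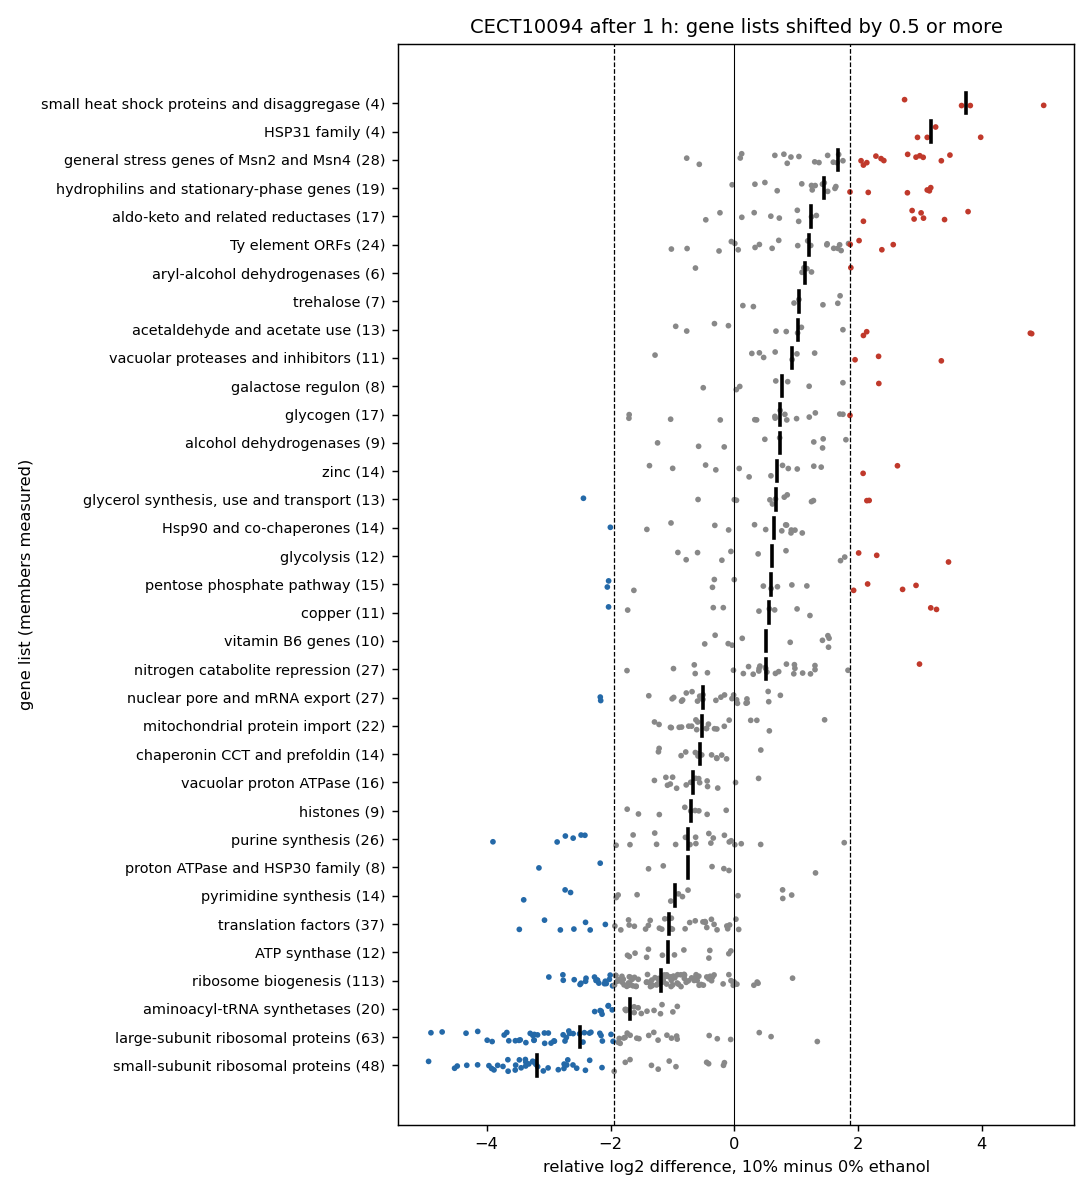
Relative log2 difference (x axis) of each measured member of the 35 gene lists whose median lay 0.5 or more from 0, with the number of members measured in parentheses. Red points were raised, blue points lowered and grey points not called, black bars are medians, and dashed lines mark the limits at -1.95 and 1.87. Ribosomal proteins lie farthest to the left, with a median of -3.19 for the small subunit, and the small heat shock proteins farthest to the right, at 3.74.

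The lowered ORFs were led by ribosomal proteins. Of 48 measured genes of the small subunit 37 were lowered, with a median relative difference of -3.19, and of 63 genes of the large subunit 41 were lowered, with a median of -2.50. Together they made up 78 of the 212 lowered ORFs, and none of these genes of the cytosolic ribosome was raised. *RPS7A* went from 1.30 without ethanol to -3.22 with it, a relative difference of -4.94. *RPL8B* went from 1.42 to -3.06 and *RPL24A* from 1.5 to -2.82. All 3 genes went from above the pool to far below it.

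Most ribosomal proteins of yeast are encoded by a pair of copies, marked A and B, with coding sequences so alike that spots can share signal. Both copies had values for 46 pairs. In 25 of them both copies were lowered, in 11 a single copy, and in 10 neither. The median gap between copies was 0.53, and 14 pairs differed by more than 1. *RPL20A* had -4.15 and *RPL20B* 1.34, the only gene of these lists above 1, and *RPS19B* had -2.61 while *RPS19A* had -0.16. *RPL20B* went from -0.91 without ethanol to 0.85 with it, opposite to its copy, which went from 1.22 to -2.50. Whether the difference belongs to the transcript or to the spot was not tested.

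Of 113 ribosome biogenesis genes 19 were lowered, 1 of them on the deposited scale only, 72 were below -1, and the median was -1.18. *NSR1*, a nucleolar protein of pre-rRNA processing, went from 0.92 to -1.65. *MRT4* and *NHP2* were lowered at -2.77 and -2.76, and *NOP58*, a core protein of the methylating particles, at -2.23. *UTP22* was the highest of the list at 0.94. RNA polymerase I and III had a median of -0.49 over 40 genes, with *RPA49*, a subunit of polymerase I, lowered at -2.0.

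Of 37 translation factors 7 were lowered and none was raised, with a median of -1.06. *STM1*, which binds ribosomes, had -3.47. The elongation factors *EFT1*, *EFB1* and *TEF1* had -3.07, -2.59 and -2.40. The cap-binding *CDC33*, its scaffold *TIF4631* and *TIF3* had -2.81, -2.08 and -2.33. *TIF4632*, the other scaffold, had 0.03. Of 20 aminoacyl-tRNA synthetases 7 were lowered, 1 on the deposited scale only, 18 were below -1 and all were below 0. They spanned a narrow range from -2.26 for *YDR341C*, the arginyl enzyme, to -0.92 for *DPS1*, the aspartyl enzyme.

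Of 26 purine genes 6 were lowered and none was raised, with a median of -0.75. *GUA1*, the GMP synthase, went from 1.5 to -1.98, a relative difference of -3.90 or 14.9-fold. *IMD2*, *IMD3* and *IMD4*, which encode the enzyme just before it and are near-identical, were lowered at -2.60, -2.41 and -2.86, as were *YAR073W* and *YAR075W*, ORFs of the same family, at -2.77 and -2.60. The salvage enzymes *HPT1* and *APT1* had -2.48 and -2.73. No gene of the *ADE* series was called. *ADE13* had -1.91 and *ADE16* -0.05, and *ADE6* had 1.78, the highest of the 26 purine genes. Of 14 pyrimidine genes *URA7*, the CTP synthase, *URA1* and *URA5* were lowered, at -3.4, -2.73 and -2.65. *URA8*, the second CTP synthase, had 0.78.

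At the plasma membrane *PMA1*, the proton pump that sets the membrane potential, went from 1.06 without ethanol to -1.67 with it. Its copy *PMA2*, so alike that the spots can share signal, went from 0.19 to -1.56. *HSP30*, a stress protein that acts on the pump, had 1.31. In the mitochondrion all 12 measured ATP synthase genes had relative differences below 0, with 6 below -1 and none called, and a median of -1.06. *ATP1* and *ATP20* were the lowest, at -1.73 and -1.70. The vacuolar proton ATPase had a median of -0.66 over 16 genes.

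The respiratory chain list had a median of -0.09 over 26 genes and 1 call each way. *CYB2*, the lactate dehydrogenase of the intermembrane space, went from -2.97 to 0.64, and *NDE1*, the external NADH dehydrogenase, from 0.75 to -1.58. The isoforms of low oxygen, *CYC7* and *COX5B*, had 1.61 and 1.47. All 9 measured histone genes were below 0, with a median of -0.70, 3 of them below -1 and none called.

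Of 38 regulators of stress genes 1 was called, a share near that of all ORFs. It was the repressor *XBP1*, raised by 1.98 on the deposited scale only. The median of the list was 0.20, with 28 members above 0 and 10 below. *MSN4* had 1.02 and *MSN2* -0.10, *HSF1* 0.11 and *YAP1* 0.67. *GCN4* had -1.17 and *HOT1* -1.32, the lowest. The cAMP pathway, which restrains Msn2 and Msn4, had a median of 0.02 over 18 genes, with 9 above 0 and 9 below. Its 1 called gene was the adenylate cyclase *CYR1*, raised by 2.79, from -2.08 to 1.13. The lowest was *IRA2* at -1.77. *BCY1*, the regulatory subunit of the kinase, had 1.23, a value within the limits.

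ORFs of Ty retrotransposons, mobile elements that copy through RNA, had a median of 1.21 over 24 measured, with 4 raised and 14 above 1. *YMR051C* went from -1.69 to 1.30 and *YBL005W-A* from -1.54 to 1.27, and *YJR026W* and *YJR029W* were raised by 2.02 and 1.87. *YER160C* was the lowest at -1.02. Copies of 1 element are near-identical, so these spots are not separate measurements.

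Of the 131 raised ORFs 7, and of the 212 lowered ORFs 22, are not in the reference annotation used for names. That annotation holds 5653 of all 6152 ORFs, so some called ORFs outside it are to be found in any set. Whether their share differs from that of all ORFs was not tested. For 6 of the 22, an annotated gene numbered just before or after was also lowered, among them *YGL102C* beside *RPL28*, at -3.96 and -3.64, *YGR160W* beside *NSR1*, and *YOR309C* beside *NOP58*. The consecutively numbered *YAR073W*, *YAR074C* and *YAR075W*, none of them in that annotation, were all lowered, at -2.77, -2.31 and -2.60. Spots of overlapping ORFs can share signal where strand is not told apart. Among 5120 pairs of adjacent annotated genes with values, 10 pairs were both raised and 21 both lowered. Of all ORFs 2.18% were raised and 3.53% lowered, so some such pairs arise without any tie between neighbours. Whether there were more than that was not tested, and many of the lowered pairs held a ribosomal protein gene. The raised pairs included *PDI1* with *YCL042W*, *GPD1* with *GPM2*, *PYK2* with *PUT4* and *YML131W* with *ERO1*. The lowered pairs included *RPS7A* with *RKI1* and *RPS28A* with *GLN4*. *INO80*, an ATPase that remodels chromatin, had -3.97, the lowest value of a gene with a symbol outside the ribosomal proteins, and the gene next to it, *NUT1*, was lowered at -2.02. The medians of the relative difference by chromosome arm ran from -0.21 to 0.36.

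The comparison was then set among all 8 columns, after subtracting the median of each column. For the 116 raised ORFs with values in every column, the median was -2.09 in CECT10094 early without ethanol and 0.50 in CECT10094 early with it. In the late columns of this strain it was -0.73 without and -0.72 with ethanol, so the late levels lay between the early ones. CECT10094 early without ethanol was the lowest of the 8 columns for 74 of these 116 ORFs (63.8%), against 677 of 5359 ORFs with all values (12.6%). The highest column was Temohaya-MI26 early with ethanol for 53 of the 116 (45.7%), against 1006 of 5359 (18.8%). It was CECT10094 early with ethanol for 37 (31.9%), against 420 of 5359 (7.8%). In the early columns of Temohaya-MI26 the raised ORFs had medians of -1.80 without and 0.39 with ethanol. For the 201 lowered ORFs the medians were 1.18 early without ethanol and -1.41 early with it, and -0.17 and 0.03 late. CECT10094 early with ethanol was the lowest column for 128 of them (63.7%), against 594 of 5359 (11.1%). The highest column was Temohaya-MI26 early without ethanol for 132 of them (65.7%), against 831 of 5359 (15.5%). It was CECT10094 early without ethanol for 49 (24.4%), against 548 of 5359 (10.2%). Their medians in the early columns of Temohaya-MI26 were 1.37 without and -1.11 with ethanol. These positions follow in part from the call, which uses both early columns.

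**Figure D4:**
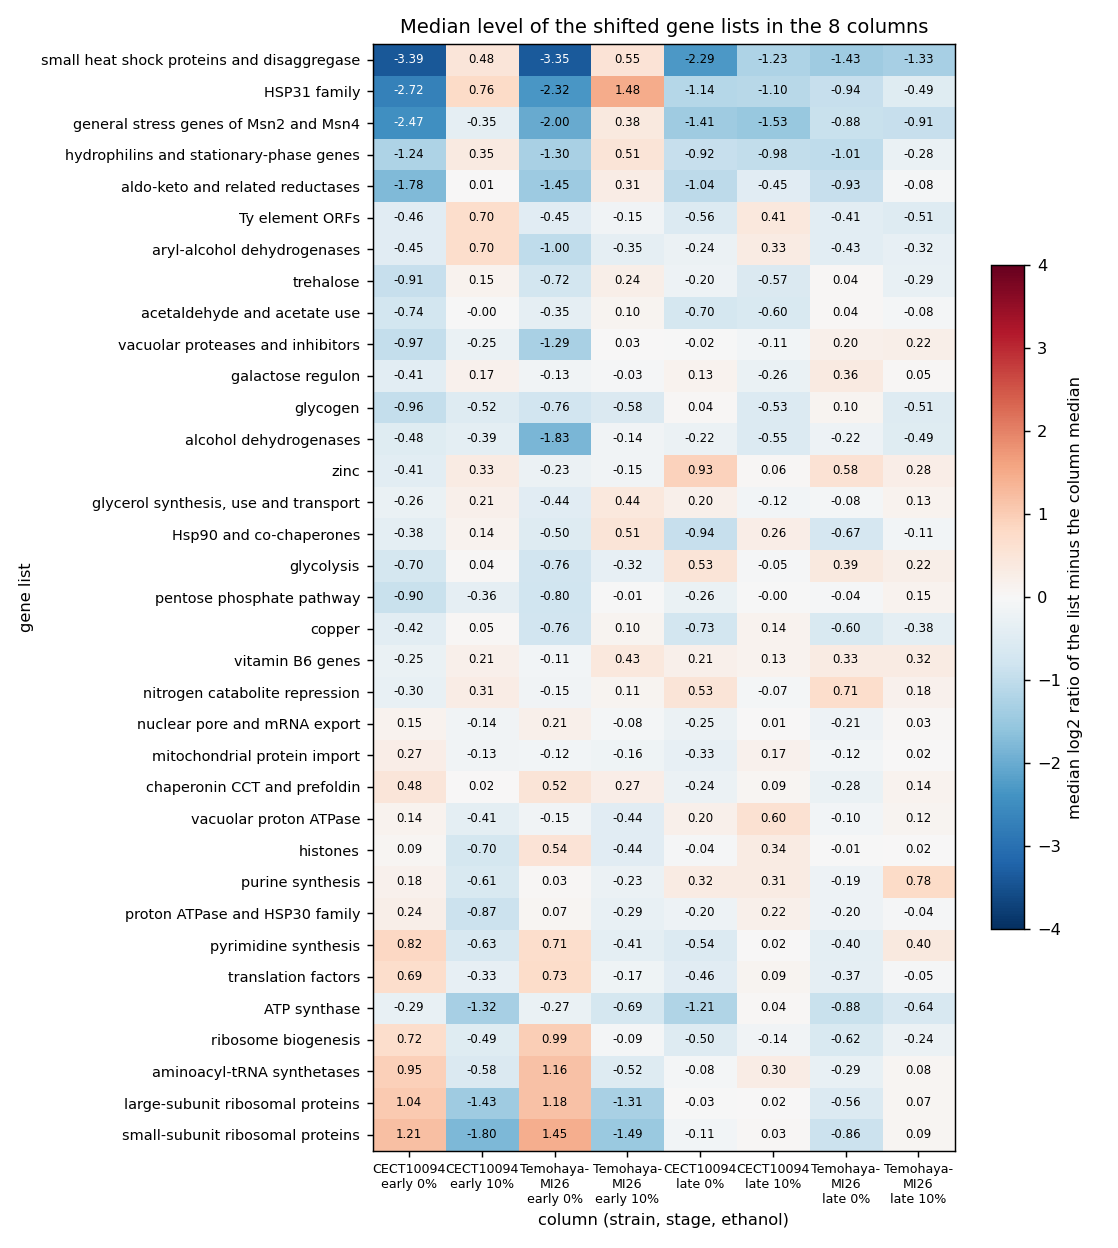
Median log2 ratio of a gene list minus the median of the column, for the 35 lists of the plot of list members (rows) in the 8 columns (strain, stage and percent ethanol). In CECT10094 early, small-subunit ribosomal proteins go from 1.21 without ethanol to -1.80 with it and lie near 0 late, and small heat shock proteins go from -3.39 to 0.48.

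Temohaya-MI26 was treated alike for the same hour, and its relative differences are given side by side. A difference between the strains could not be tested with 1 column per condition. In that strain 13.8% of ORFs had a relative difference above 1 and 13.4% one below -1. Of the 124 ORFs raised in CECT10094 with a value there, 96 were above 1 in Temohaya-MI26 too, and of 205 lowered ORFs 193 were below -1. The median of the raised ORFs was 2.37 in CECT10094 and 2.15 in Temohaya-MI26, and that of the lowered ORFs -2.60 and -2.34. Since the ORFs were picked by the CECT10094 values, the smaller medians in the other strain are no measure of a smaller response.

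For some genes, picked for the gap, the values were far apart. *THI12*, *THI13* and *THI11* had 3.87, 4.07 and 2.66 in CECT10094, whereas the Temohaya-MI26 values were 0.62, 0.98 and 0.09. In the same order of strains, *MPD1* had 2.88 and 0.42, *PDI1* 2.38 and 0.84, and *RGI1* 2.80 and 0.45. *ERO1* had 2.56 and 2.60, so the 3 raised ER genes did not share the gap. The Ty list had a median of 1.21 and 0.32. With the larger value in Temohaya-MI26, *HSP12* had 3.67 and 6.47, *ALD3* 1.75 and 5.46, *SIP18* 1.31 and 4.99, and the membrane protein *YRO2*, a homolog of *HSP30*, -0.36 and 3.50. The general stress list had medians of 1.67 and 2.38, and the proteasome 0.49 and 1.17. The ribosomal lists were closer, at -3.19 and -2.88 for the small subunit and -2.50 and -2.28 for the large one.

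**Figure D5:**
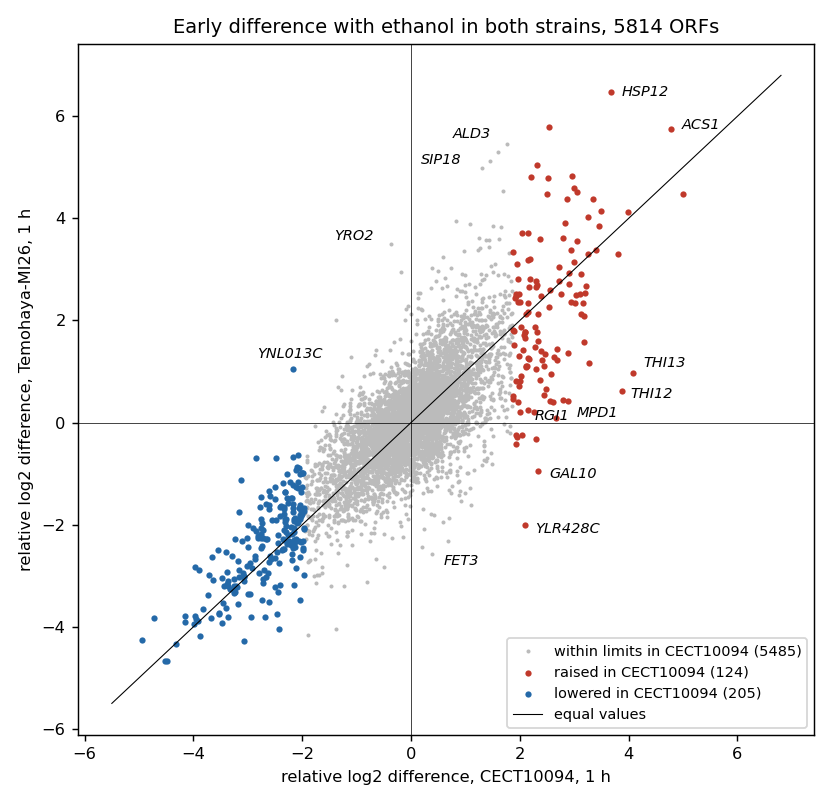
Relative log2 difference after 1 h in CECT10094 (x axis) and Temohaya-MI26 (y axis) for 5814 ORFs with both values. Colours give the call in CECT10094 and the line marks equal values. *THI12* and *THI13* lie far below the line, and *YRO2* and *ALD3* far above it.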

How the data were processed

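Processed values of 8 conditions were used. In GenePix Pro the authors took off a global background and removed poor spots. They then took the log2 ratio of Cy5 to Cy3, normalized and filtered it in Acuity, and deposited the median of 3 slides per condition (24 slides in all). The strain labelled PE35M was taken as CECT10094. A further deposited table, holding the authors' own log2 differences between 10 and 0% ethanol, was not used.

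For each ORF the ratio at 0% ethanol was subtracted from that at 10%, and the median over ORFs was removed. Calls used the mean and a multiple of the SD of all differences. Of 6152 ORFs, 5653 matched a locus tag of RefSeq, which gave the names. On the 81 gene lists, 6 names matched no ORF. Members, lists and the rule for named genes were chosen with earlier results of these data known. The rule took the 30 largest and 30 smallest differences and every called ORF, those of opposite sign in Temohaya-MI26 included. From lists with 14 or fewer measured genes it took all members, otherwise the 6 highest and 6 lowest. It also took the stress regulators and genes the study names for the early response. Other genes, such as *THI5*, *SIP18*, *FET3* and *FTR1*, were chosen after their values were seen. Python 3.11.15, pandas 2.3.3 and numpy 2.4.6 were used, and the calculation was tested on simulated data. Alternatives changed the limit, the scaling and the ORFs kept.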

Additional observations from a re-analysis of the deposited data

Results flagged for a closer look

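For 8 called ORFs the relative difference after 1 h had the opposite sign in Temohaya-MI26. With 1 column per condition the difference between the strains was not tested. The most opposed pair of values was that of *YLR428C*, with 2.09 in CECT10094 and -2.02 in Temohaya-MI26, raised on the deposited scale only. *GAL10*, an enzyme of galactose use, had 2.34 and -0.95. The sterol acyltransferase *ARE2* had 1.92 and -0.42, *BNA2*, the first enzyme of NAD synthesis from tryptophan, 1.93 and -0.25, and *SWD1*, a subunit of the histone methylating complex COMPASS, 1.95 and -0.29. *YDL242W* had 2.29 and -0.32 and *YKL115C* 2.04 and -0.25. The 1 lowered ORF among them was *YNL013C*, with -2.16 in CECT10094 and 1.05 in Temohaya-MI26.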

How the results depend on the processing

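The number of calls followed the limit. Against 131 raised and 212 lowered ORFs, a limit from the median absolute deviation (MAD) gave 275 and 396, a larger multiple of the SD gave 58 and 109, and a relative difference of 1 gave 629 and 775. A relative difference of 2 gave 109 and 203. Quantile normalization gave 124 and 224, of which 96 and 209 were shared with the deposited scale, and scaling to a common MAD gave 122 and 217, of which 112 and 206 were shared. These scalings moved the median difference of all ORFs from 0.42 to 0.07 and 0.06. No list median and no named gene changed sign in a called value. Under quantile normalization the median of the small heat shock protein list was 2.98 and that of the general stress list 1.10. Leaving out chromosomes I, II right arm and III gave 1.28 for alcohol dehydrogenases and -1.39 for the proton ATPase list, and keeping ORFs with all 8 values gave -0.59 for cell wall glycoproteins. Of 1131 named genes, 38 lost and 10 gained a call under quantile normalization, and 25 and 8 under the common MAD. Leaving out a replicate was not possible, since the slides of a condition were combined before deposit. No paired analysis was possible because each condition has 1 column. The planned search of promoters for motifs was not run, since promoter sequences were not used here. Counting depth does not apply to arrays, and the number of slides limits the precision.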
